A study of Mus musculus with 8 samples.

Results

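RNA polymerase III makes short noncoding RNAs, and the 49 genes described here are 7 of its RNAs and 42 genes for proteins that make, regulate, bind or work with such RNAs. They form a named list, and all 49 were measured among the 20265 genes tested. The 7 RNAs were chosen on the contrast described here, because their levels had differed between the populations on these arrays, so their differences are given as a description with no test. The 42 protein genes were listed by function. They comprise 11 polymerase subunits, 11 initiation factors, the 5 subunits of the small nuclear RNA activating complex (SNAPc), 5 regulators and RNA partners, and 10 proteins of RNase P and RNase MRP.

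The cells came from mammary tumours of mice that carry the s-SHIP and C3(1)-Tag transgenes together. The first drives GFP from an internal promoter of Inpp5d that is known to be active in stem cells, and the second expresses the SV40 T antigens, which bind p53 and the retinoblastoma protein, in mammary epithelium. Both populations carry both transgenes, and no cells without them were profiled. Lineage-negative CD49f-positive cells with GFP (GFP+) and lineage-negative CD49f-positive cells without it (GFP-) were sorted from each of 4 tumours, numbered 566, 567, 573 and 631, which gave 8 arrays of Cy3-labelled total RNA. The labels give no age, no treatment of the mice and no list of lineage antibodies, and do not say whether each number is a separate animal. If they do not, the p-values cover no more than the spread between samples, which may be technical.

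RNA polymerase III transcribes tRNA genes, 5S rRNA genes and a set of small structural RNAs. Rpph1 is the catalytic RNA of RNase P, which trims the 5′ ends of tRNA precursors, and Rmrp is the RNA of the related RNase MRP, which acts on ribosomal RNA precursors. Rn7sk is the RNA of the 7SK particle, which holds the elongation factor P-TEFb inactive, and Rn7s1 is a 7SL RNA of the signal recognition particle. Rprl1, Rprl2 and Rprl3 are RNase P RNA-like genes. T antigen, p53, the retinoblastoma protein, MYC and mTOR are all known to act on this transcription system.

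Genes such as Rpph1, Rmrp and Rn7sk are known to be driven by sequence before the gene, with a TATA box, a proximal sequence element bound by SNAPc, and distal elements such as the octamer. No promoter window was listed for any of the 7 RNAs, but 3 of them lie within 500 bases of the window of a gene next to them. These 3 windows are shown because they hold the sequence beside the RNA genes. They are from RefSeq, build GRCm38.p6, and reach from 250 bases before to 50 bases after the start of the neighbouring gene. Capitals mark matches on either strand to TATAA, the octamer ATGCAAAT, CCANNATGC or ACCNTAA, where N is any base, the last of these being part of the proximal sequence element.
Parp2 window beside Rpph1 (chr14:50807666-50807965, plus strand): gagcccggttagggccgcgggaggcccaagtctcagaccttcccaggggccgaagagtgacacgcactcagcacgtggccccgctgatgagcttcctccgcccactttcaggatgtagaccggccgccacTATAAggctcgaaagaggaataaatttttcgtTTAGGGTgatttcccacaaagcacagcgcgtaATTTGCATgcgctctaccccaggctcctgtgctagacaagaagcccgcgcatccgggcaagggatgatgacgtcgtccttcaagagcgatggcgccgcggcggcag
Ccdc107 window beside Rmrp (chr4:43493115-43493414, plus strand): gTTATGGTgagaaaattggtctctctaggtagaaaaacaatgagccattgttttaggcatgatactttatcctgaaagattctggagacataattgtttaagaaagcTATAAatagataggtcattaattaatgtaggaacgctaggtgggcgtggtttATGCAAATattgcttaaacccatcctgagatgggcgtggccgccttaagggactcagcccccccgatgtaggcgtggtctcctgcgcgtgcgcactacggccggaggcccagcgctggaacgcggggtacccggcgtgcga
C920006O11Rik window beside Rn7sk (chr9:78175664-78175963, plus strand): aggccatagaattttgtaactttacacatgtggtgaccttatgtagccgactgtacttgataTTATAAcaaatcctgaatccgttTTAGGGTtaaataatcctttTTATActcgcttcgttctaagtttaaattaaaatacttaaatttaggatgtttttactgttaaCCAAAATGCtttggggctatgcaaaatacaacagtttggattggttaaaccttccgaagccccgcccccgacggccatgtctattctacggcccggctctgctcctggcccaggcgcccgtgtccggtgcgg

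The Parp2 window overlapped Rpph1 by 106 bases, a gene pair known to share a bidirectional promoter, and the other windows began 55 bases past the end of Rmrp and 30 bases past the end of Rn7sk. Beside Rpph1, TATAA lay 25 to 29 bases from the nearer gene end, ACCNTAA 57 to 63 bases from it and the octamer 89 to 96 bases from it. Beside Rmrp, ACCNTAA lay 57 to 63, TATAA 163 to 167 and the octamer 215 to 222 bases from the gene end. Beside Rn7sk, TATAA on the plus strand lay 94 to 98 bases from the gene end, overlapping a match on the minus strand at 93 to 97, and a further minus-strand match lay at 136 to 140. There, ACCNTAA lay 116 to 122 and CCANNATGC 199 to 207 bases from the gene end. Of all 32851 windows, 24.9% held TATAA, 1.74% the octamer, 4.37% CCANNATGC and 6.98% ACCNTAA. Of 35 windows of 34 machinery genes, 4 held TATAA, 0 the octamer, 2 CCANNATGC and 3 ACCNTAA. A match is only a run of letters, and the reference table used gives no strand for the RNA genes.

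On 7 arrays, 53.5% to 58.5% of gene spots were well above background, and on the GFP+ array of 573 it was 34.1%. The intensity at the 75th percentile was between 344 and 580 units. The slide held all 4 GFP+ arrays in 1 column and all 4 GFP- arrays in the other, so column and population cannot be told apart. Of all 20265 genes tested, 0 (0%) passed limma's test between populations at an adjusted p of 0.05, with 161 at an unadjusted p under 0.05. The reporter's own gene, Inpp5d, was higher in GFP+ cells in 4 of 4 tumours, by 2.75, 1.68, 1.28 and 2.23 on the log2 scale in 566, 567, 573 and 631. It was not well above background on the GFP+ array of 573, so the value of that tumour rests on background. All 8 epithelial markers were measured. Several defining markers of other types (Ptprc, Pecam1, Cdh5, Kdr, Adgre1 and Lum) were not well above background on all 4 arrays of either population. They may still have been detected on single arrays, so their cell types cannot be called absent.

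Each of the 7 RNAs was lower in GFP+ than in GFP- cells in all 4 tumours. The median of their mean differences was -1.45 on the log2 scale, or 2.73-fold lower in GFP+ cells. Rpph1, Rmrp, Rn7sk and Rn7s1, well above background on all 8 arrays, had a median of -1.32 and were 2.06-fold to 2.72-fold lower. The 3 Rprl genes passed the filter on dim probes only through the GFP- cells, where they are higher. For all 7, every GFP+ level lay under every GFP- level. Of all genes tested, 10.8% were lower in all 4 tumours, 3.39% were higher in all 4, and 0.686% had GFP+ levels all under their GFP- levels. Since these RNAs were selected on this difference, nothing is read from their count against those shares. Levels below are log2 intensity relative to the 75th percentile of the array, so that 0 is that percentile, and levels of different probes are not compared.

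For Rpph1, the GFP+ levels were 0.19, -0.14, -0.28 and -0.55 in 566, 567, 573 and 631, and the GFP- levels were 1.19, 0.76, 0.95 and 1.32. All GFP+ levels were lower, and the tumour with the lowest GFP+ level, 631, had the highest GFP- level. The mean difference was -1.25 ± 0.43 (SD, n = 4). For Rmrp, the GFP+ levels were -0.21, 0.17, -0.30 and -0.42 and the GFP- levels 0.93, 1.05, 1.03 and 2.0 in the same order. The GFP- cells of 631 stood above the other arrays, whose GFP- levels lay close together. The mean difference was -1.45 ± 0.68 (SD, n = 4), the widest spread among the 7 RNAs.

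For Rn7sk, the GFP+ levels were 4.12, 3.94, 4.02 and 3.38, and the GFP- levels were 5.37, 4.96, 5.17 and 5.54. Again 631 had both the lowest and the highest level. The mean difference was -1.39 ± 0.52 (SD, n = 4). For Rn7s1, the GFP+ levels were 3.67, 3.28, 3.27 and 3.18, and the GFP- levels were 4.35, 4.10, 4.54 and 4.57. This was the smallest mean difference of the 7 RNAs, -1.04 ± 0.35 (SD, n = 4). Its near-identical copy Rn7s2 can share the signal, so the value may belong to either gene.

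The RNase P RNA-like genes were lower too. The GFP+ levels of Rprl1 were -2.49, -2.89, -3.54 and -3.18, against -1.54, -1.82, -1.51 and -1.37 in GFP- cells. For Rprl2, GFP+ levels were -1.07, -1.18, -1.80 and -1.73, against 0.21, -0.14, 0.06 and 0.22. For Rprl3, GFP+ levels were -0.63, -0.89, -1.52 and -1.67, against 0.50, 0.54, 0.33 and 0.58. Every GFP+ level of each gene was under its GFP- levels. The mean differences were -1.46 ± 0.53 for Rprl1, -1.53 ± 0.44 for Rprl2 and -1.66 ± 0.49 for Rprl3 (SD, n = 4 each). None of the 3 genes was well above background on the GFP+ array of 573. Their levels there, and the means that use them, rest on background. The lowest level well above background on that array was -1.28. Both levels of Rprl1 in 573 lay under it, so the direction of Rprl1 in that tumour is not resolved. Without both arrays of 573 the mean differences were -1.28, -1.42 and -1.60, and with a common floor Rprl1 lay at the floor in both populations. The 3 genes resemble each other and Rpph1, and one RNA could give signal on several of these probes. Without both arrays of 573, the median difference of the 7 RNAs was -1.42, and without both arrays of 631 it was -1.14.

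**Figure D1:**
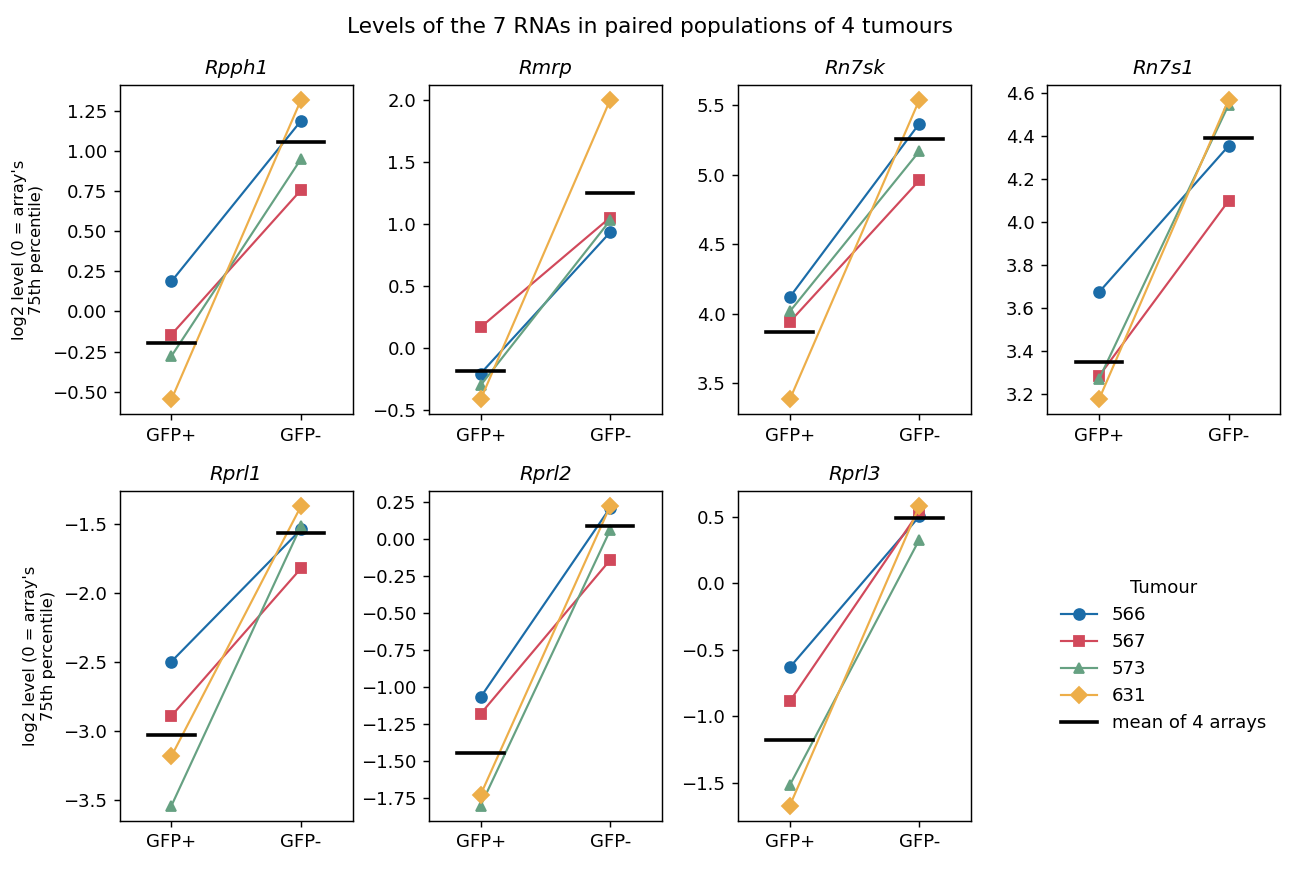
Log2 level of each of the 7 RNAs (vertical axes, 0 is the 75th percentile of the array, scales differ between panels) in GFP+ and GFP- cells, with a line joining the arrays of 1 tumour and black bars for the means of 4 arrays. All 28 lines run upward from GFP+ to GFP-, and the steepest line is that of 631 for 6 of the 7 RNAs.

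The size of the difference varied by tumour. The median over the 7 RNAs was -1.13 in 566, -1.02 in 567, -1.33 in 573 and -1.95 in 631, or 2.20-fold, 2.03-fold, 2.52-fold and 3.86-fold lower in GFP+ cells. The largest difference was in 631 for 6 RNAs and in 573 for Rprl1, whose GFP+ level there rests on background. The smallest was in 566 for 3 RNAs and in 567 for 4. Over all genes tested, the median difference in the same tumours was 0.02, -0.01, -0.09 and -0.20.

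Over the 8 arrays, Pearson's r between RNA levels ran from 0.899 to 0.989 over the 21 pairs, with a median of 0.965. Choosing the RNAs on the population contrast builds in a high r over all arrays, so nothing is read from it. With the population means removed, r ran from 0.361 to 0.928, with a median of 0.694. These points share arrays and scaling, and some probes may share RNA, so r is a description.

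Between populations lay 81.5% to 90.3% of each RNA's sum of squares, and 2.58% to 6.67% lay between tumours. For the protein machinery the summed shares were 6.07% between populations and 78.6% between tumours, close to 7.11% and 76.6% over all genes tested. Tumour held over 50% of the sum of squares for 38 of 42 machinery genes. The largest population share among them was 34.4%, for Hexim1. Over all genes, 19 of 20265 (0.0938%) had more than 80% between populations, and the 7 RNAs, chosen on that contrast, are 7 of these.

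**Figure D2:**
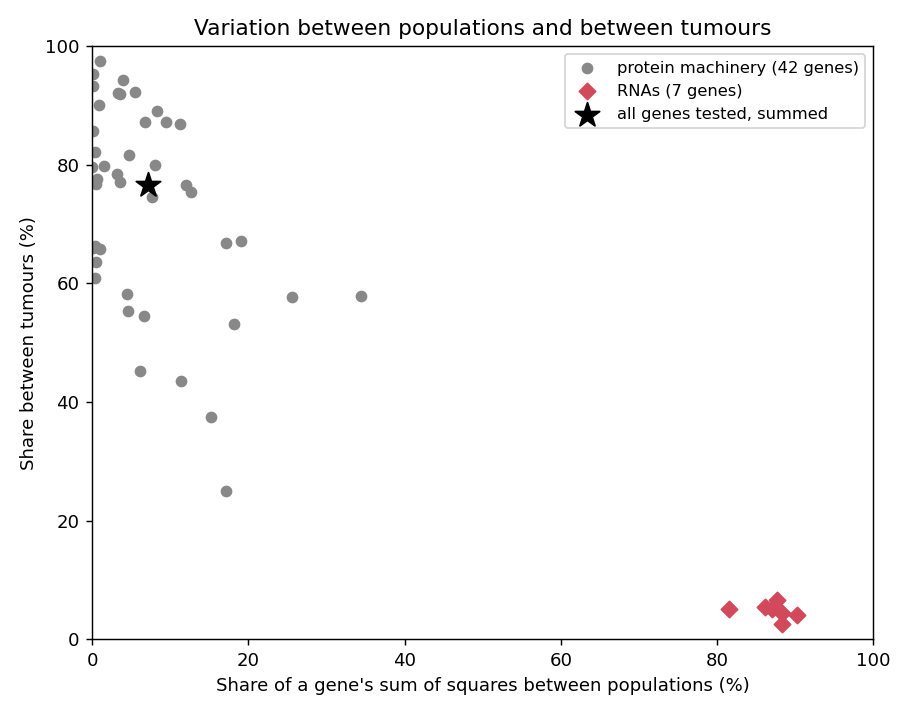
Share of a gene's sum of squares between populations (horizontal axis, percent) and between tumours (vertical axis, percent) over 8 arrays, for the 7 RNAs (diamonds), the 42 machinery genes (circles) and all genes tested summed (star). The RNAs, chosen on the population contrast, lie between 81.5% and 90.3% on the horizontal axis, while the highest machinery gene, Hexim1, lies at 34.4%.

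The tumour effect was tested with limma's F-test in a model that also held the population. For the RNAs no result is given, since choosing genes on the population contrast favours those with little spread between tumours. The test passed for 7 of the 42 machinery genes at an adjusted p of 0.05, against 28.8% (5834) of all genes tested. The 7 machinery genes make up 16.7% of the 42.

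Among the polymerase subunits, Polr3a, Polr3d and Polr3e differed among tumours. Polr3a encodes the largest, catalytic subunit. Its tumour means in 566, 567, 573 and 631 were -0.38, -0.34, -1.30 and -0.55, with an adjusted limma p of 0.0328. Polr3d, a subunit of the arm that takes part in termination, had means of 0.64, 0.65, -0.37 and 0.51, with an adjusted limma p of 0.0265. In both genes 573 stood below the other tumours in both populations, but Polr3a was not well above background on the GFP+ array of 573. For Polr3a, that level and the mean of 573 rest on background. Polr3e means were 0.18, -0.40, -0.61 and 0.20, so that 567 and 573 were the low tumours, with an adjusted limma p of 0.0454.

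In SNAPc, Snapc1 means were -2.22, -2.24, -2.54 and -1.31, highest in 631, with an adjusted limma p of 0.0249. Snapc1, too, was not well above background on the GFP+ array of 573. Snapc3 means were 0.01, 0.79, 0.39 and 0.94, lowest in 566, with an adjusted limma p of 0.0359. Among RNase P and RNase MRP proteins, Pop1, a large shared subunit, had means of 0.82, 1.31, 0.34 and 2.18 and an adjusted limma p of 0.0148, the smallest of the 42. Rpp21, a subunit of RNase P, ran the other way, with means of 3.71, 3.42, 4.10 and 2.95 and an adjusted limma p of 0.0319. For Pop1, 631 was highest and 573 lowest, and for Rpp21, 573 was highest and 631 lowest, in both populations. None of the initiation factors or regulators passed. Leaving out single arrays or tumours left 0 to 5 of the 42 past the threshold, and median scaling gave 18. With no filter on dim probes 0 of the 42, and 0 of all genes, passed, with 7666 of all genes at an unadjusted limma p under 0.05.

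**Figure D3:**
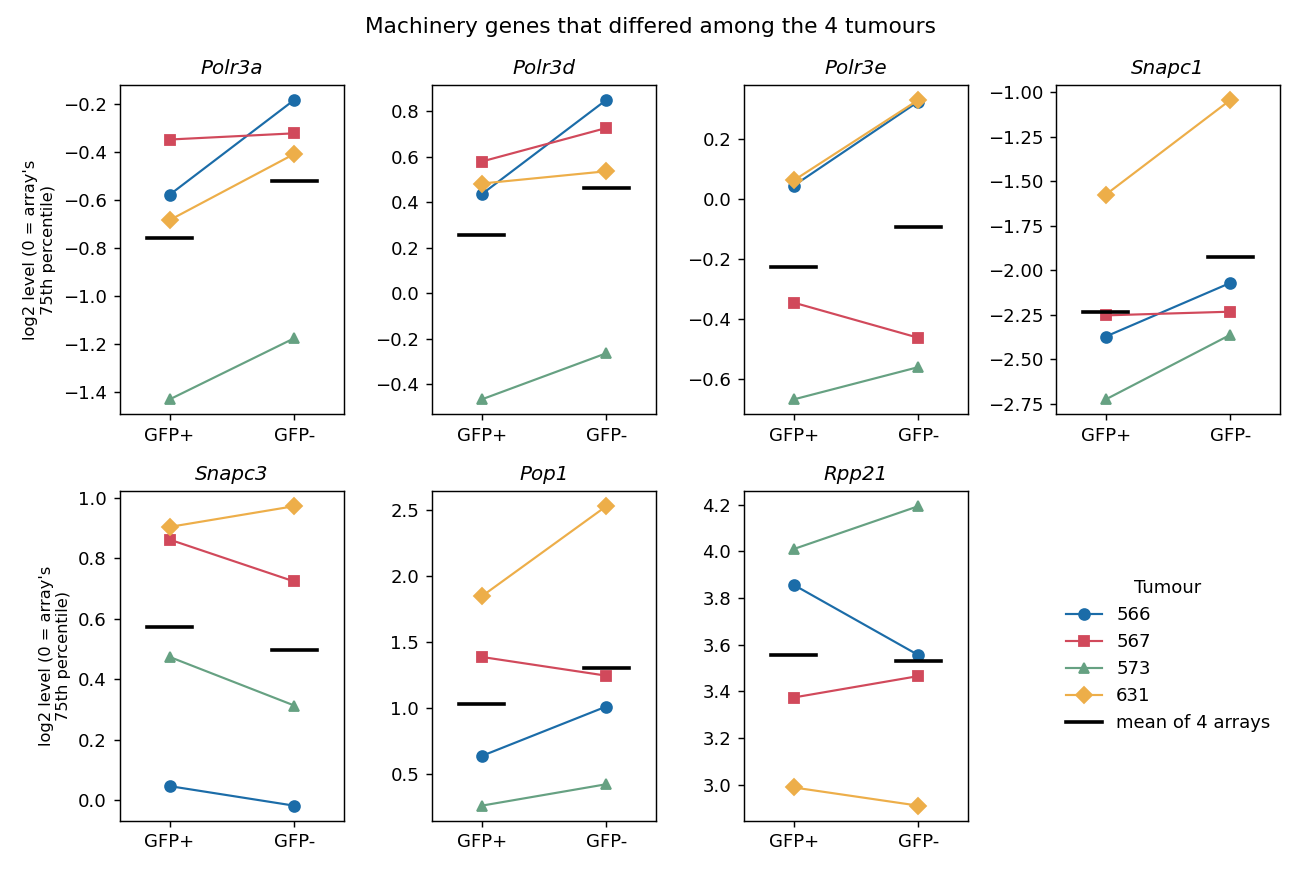
Log2 level (vertical axes, 0 is the 75th percentile of the array, scales differ between panels) of the 7 machinery genes with an adjusted tumour p under 0.05, in GFP+ and GFP- cells, with a line joining the arrays of each tumour and black bars for the means of 4 arrays. Polr3a and Polr3d are lowest in 573 in both populations, and Snapc1 and Pop1 are highest in 631.

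Between populations, the 42 protein genes differed little. Of them 29 (69%) had a lower mean in GFP+ cells, against 63.5% of all genes tested, and their median difference was -0.11 against -0.06. Lower in all 4 tumours were 7 (16.7%) against 10.8% of all genes, and higher in all 4 were 0 against 3.39%. None of the 42 had populations that did not overlap, against 0.686%. Of the 42, 7 (Polr3a, Polr3f, Polr3g, Brf2, Gtf3c4, Snapc1 and Rpp25) passed the filter on dim probes only through GFP- cells, and 4 of these are among the 7 lower in all 4 tumours. Where each probe had to be detected on all 8 arrays, 3 of 36 were lower in all 4, against 9.4% of the genes then tested. None passed limma's test, none had an unadjusted p under 0.05, and the adjusted p of each was 1. The widest mean difference was that of Hexim1, 1.29-fold. By tumour, 22, 19, 27 and 40 of the 42 were lower in GFP+ cells in 566, 567, 573 and 631. Scaling by the array median changed the count lower in all 4 tumours to 1, where the share of all genes was 6.99%, and only 13 of the 42 kept the sign of their mean difference in all 22 settings tried.

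The 11 polymerase subunits build the enzyme itself. They had a median difference of -0.13, with 8 lower and 3 higher in GFP+ cells. Polr3a had GFP+ levels of -0.58, -0.35, -1.43 and -0.68 and GFP- levels of -0.18, -0.32, -1.18 and -0.41 in 566, 567, 573 and 631. Polr3b, the second-largest subunit, had -0.51, -0.17, -0.52 and -0.00 against -0.32, -0.01, -0.43 and 0.29. In both genes each tumour's GFP+ level was the lower, and the populations overlapped.
Polr3d had 0.44, 0.58, -0.47 and 0.48 against 0.85, 0.73, -0.26 and 0.54. Polr3f, of a subcomplex used in initiation, had -2.0, -2.47, -3.41 and -2.98 against -1.80, -2.39, -2.48 and -2.81. The array of 573 gave Polr3f most of its mean difference, and the gene was not well above background there. The mean differences were -0.24 (SE 0.31) for Polr3a, -0.18 (SE 0.23) for Polr3b, -0.21 (SE 0.33) for Polr3d and -0.35 (SE 0.35) for Polr3f. The other 7 subunits (Polr3c, Polr3e, Polr3g, Polr3gl, Polr3k, Polr1c and Polr1d) had mean differences from -0.20 to 0.17. Polr3g and Polr3gl, alternative forms of 1 subunit, were at -0.20 and -0.12. The Polr3g probe used was not well above background on the GFP+ array of 573, and its other probe, detected on all 8 arrays, gave 0.32. Polr1c and Polr1d, shared with RNA polymerase I, were at 0.04 and 0.08.

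The initiation factors recruit the polymerase, TFIIIC by binding internal promoters and TFIIIB by positioning the enzyme. Of 11, 9 were lower in GFP+ cells and 2 higher, with a median of -0.06. Gtf3c4, a TFIIIC subunit, had -1.22, -0.72, -1.25 and -1.13 in GFP+ cells and -0.71, -0.70, -1.11 and -0.90 in GFP- cells. It was the only factor lower in all 4 tumours, by -0.22 (SE 0.20), and the populations overlapped. Tbp, the TATA-binding protein of all 3 nuclear polymerases, had 0.39, 0.32, 0.48 and -0.13 against 0.38, 0.37, 0.74 and 0.31. Its mean difference was -0.19 (SE 0.21), and another of its probes gave 0.30. The TFIIIB subunits Brf1, Brf2 and Bdp1 lay at -0.03, -0.06 and -0.01. Brf2 serves the promoters that lie before the gene, the class of Rpph1, Rmrp and Rn7sk. Gtf3a, the 5S rRNA gene factor, lay at -0.12, and Gtf3c1, Gtf3c2, Gtf3c3, Gtf3c5 and Gtf3c6 ran from -0.15 to 0.15. A second probe of Gtf3c2 gave 1.08 against -0.10 for the one used.

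SNAPc binds the proximal sequence element. Snapc1 had -2.37, -2.25, -2.73 and -1.58 in GFP+ cells and -2.07, -2.23, -2.36 and -1.04 in GFP- cells. It was lower in all 4 tumours by -0.30 (SE 0.36), a gap smaller than that between tumours. Snapc4, the subunit with the DNA-binding Myb repeats, had 1.10, 1.53, 0.96 and 0.81 against 1.86, 1.63, 0.91 and 0.83. Its mean difference of -0.21 (SE 0.30) came mostly from 566, at -0.77 in that tumour. Snapc2, Snapc3 and Snapc5 lay at -0.20, 0.07 and 0.08.

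Among regulators and RNA partners, Hexim1 is the protein that, with Rn7sk, inhibits P-TEFb. It had GFP+ levels of 1.42, 1.38, 2.16 and 1.51 and GFP- levels of 1.79, 1.94, 2.25 and 1.96. Each tumour's GFP+ level was the lower, by -0.37 on average (SE 0.23), but the GFP+ level of 573 lay above 3 of the GFP- levels. With the tumour as a block the unadjusted limma p was 0.0409 and the adjusted p 0.889. Mepce, which caps Rn7sk, had 3.93, 4.76, 4.0 and 4.19 against 4.44, 4.68, 4.25 and 4.5, a mean difference of -0.25 (SE 0.23). Larp7, which binds the 3′ end of Rn7sk, lay at -0.13, and Ssb, the La protein of new RNA polymerase III transcripts, at 0.06. Maf1, the general repressor of RNA polymerase III, lay at -0.08, with levels within 4.41 to 4.49 in GFP+ cells.

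RNase P and RNase MRP proteins are the partners of Rpph1 and Rmrp. Of the 10, 5 were lower and 5 higher in GFP+ cells, with a median of -0.02, and 0 were lower in all 4 tumours. Pop1 had 0.64, 1.38, 0.26 and 1.84 in GFP+ cells and 1.01, 1.24, 0.42 and 2.53 in GFP- cells. Its mean difference was -0.27 (SE 0.50), with 567 the exception in sign. Rpp40 had 1.79, 1.2, 1.52 and 0.67 against 1.66, 1.59, 1.73 and 1.17, a mean difference of -0.25 (SE 0.27), with 566 the exception. Rpp38 lay at -0.23 and Pop7 at -0.14. Pop4, Pop5, Rpp14, Rpp21, Rpp25 and Rpp30 ran from -0.05 to 0.05.

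**Figure D4:**
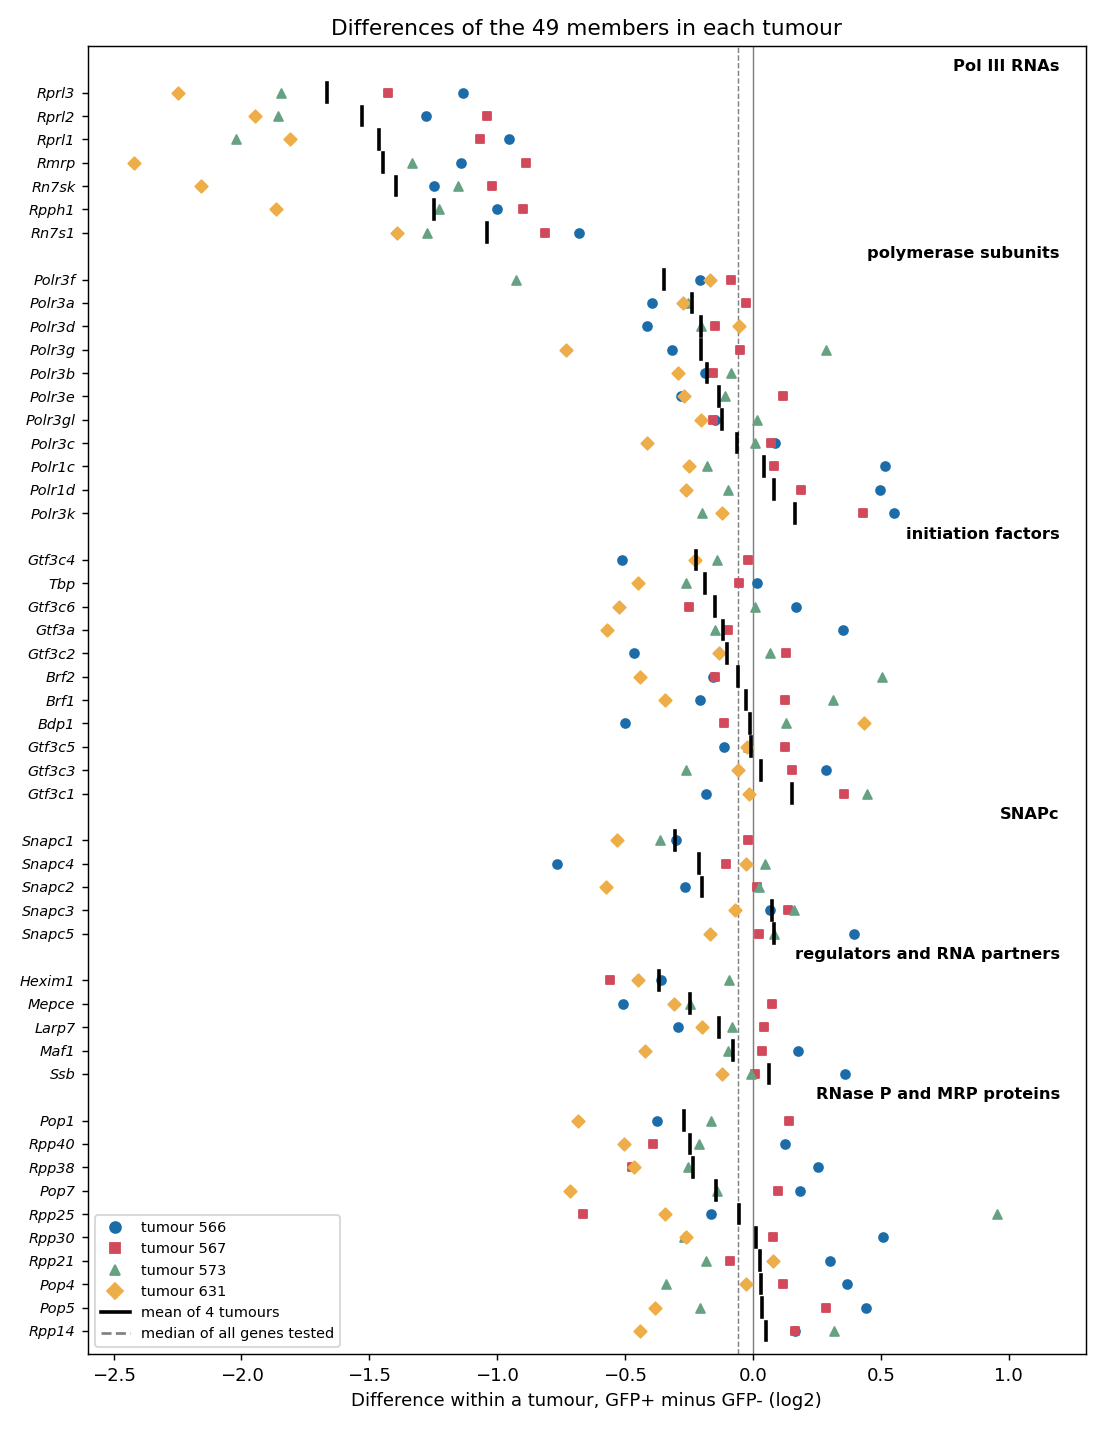
Difference GFP+ minus GFP- (horizontal axis, log2) for each of the 49 members, with 1 point per tumour and a black bar for the mean of 4 tumours, grouped by role; the grey dashed line is the median of all genes tested, -0.06. The 7 RNAs lie between -2.42 and -0.68, while the mean of each machinery gene lies between -0.37 and 0.17.

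Across the 8 arrays, each machinery gene's Pearson r with the mean level of the 7 RNAs ran from -0.158 to 0.565, with a median of 0.186. The median over all genes tested was 0.102. The RNAs were chosen on the population contrast, and 86.9% of their summed sum of squares lay between populations. Their mean level thus largely follows the population, so nothing is read from these r values.

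Other genes of the system were listed by function. Of other RNA polymerase III transcripts, 2 were measured. Vaultrc5, a vault RNA, was lower by -0.16, -0.10, -0.12 and -0.12 in 566, 567, 573 and 631. It passed the filter on dim probes only through GFP- cells and was not well above background on the GFP+ array of 573. Rn4.5s, an abundant 4.5S RNA of rodents, was lower by -0.04, -0.28, -0.28 and -0.09. Both were lower in all 4 tumours, as were 10.8% of all genes tested, and their populations overlapped. Their mean differences of -0.12 and -0.17 were smaller than that of any of the 7 RNAs.

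The P-TEFb genes Cdk9, Ccnt1, Ccnt2 and Hexim2 had mean differences of -0.06, -0.11, 0.41 and 0.16. Ccnt2 ran from -0.50 in 566 to 1.70 in 573. It was not well above background on the GFP+ array of 573, so the value of that tumour and the mean rest on background. The 10 signal recognition particle proteins, partners of Rn7s1, had 5 lower and 5 higher, and the widest were Srp68 at -0.15, Srp54a at -0.13 and Srp9 at 0.09. All 10 tRNA processing genes were lower, against 63.5% of all genes tested, with a median of -0.11 against -0.06. Xpot, which exports tRNA from the nucleus, was lower by -0.44, Elac1 by -0.40 and Rtcb, the tRNA ligase, by -0.21. Each was lower in 4 of 4 tumours, as were 10.8% of all genes tested. Elac1 passed the filter on dim probes only through GFP- cells and was not well above background on the GFP+ array of 573.
The 7 further subunits of the polymerase ran from -0.14 (Polr2e) to 0.03, with Polr2f at -0.07 and Polr2k at -0.06. The 12 RNA polymerase I genes had a median of -0.12, with Polr1a at -0.33, Taf1d at -0.32 and Taf1c at -0.24. Taf1c, too, passed the filter only through GFP- cells. The 7 RNA polymerase II subunits had a median of -0.03, with Polr2j at -0.21, Polr2b at -0.13 and Polr2m at -0.11. Among 8 known regulators, Rptor of the mTOR complex was lower in all 4 tumours at -0.29 and Myc in 3 of 4 at -0.24. None of these protein genes passed limma's test.

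Small nuclear and nucleolar RNAs form a further list of small RNAs. Of 20 small nuclear and nucleolar RNA genes with a probe, 18 were measured, with a median difference of -0.80. However, 10 of the 18 passed the filter on dim probes only through GFP- cells, where they are higher, so counts over the 18 are not set against all genes. The other 8 were well above background on all 8 arrays. Their median was -0.92, and 5 of them were lower in all 4 tumours, against 9.4% of the 13279 genes so detected. In 4 of the 8 every GFP+ level lay under every GFP- level, against 60 of those 13279 genes. These 4 were Rnu1a1 with its copies Rnu1b1 and Rnu1b6, which may be 1 signal, and Snora73a. None of the 18 passed limma's test, and 8 of the 18 were not lower in every tumour. One of these, Snora34, was at 0.54 in 566 and at 0.18 in 573, where its GFP+ level rests on background. The 18 include RNAs that RNA polymerase II makes, such as the U1 genes, and RNAs cut from introns. Rnu1a1 was lower by -0.92, -0.98, -0.67 and -1.87 in 566, 567, 573 and 631, and its near-identical copies Rnu1b1 and Rnu1b6, which may share its signal, by -1.11 and -1.10 on average. The widest mean differences were -1.72 for Snora52, -1.21 for Snora78 and -1.20 for Scarna13. Snora52 was well above background on only 2 of 4 GFP+ arrays, and Snora78 and Scarna13 on 3. The narrowest was Rnu12, at -0.15. As with the RNAs above, 631 had the widest median, -1.50, but here 573 had the narrowest, -0.48. On the GFP+ array of 573, 10 of the 18 were not well above background, so the median of 573 rests partly on background.

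Neat1, a long nuclear RNA, had a mean difference of -0.005 but ran from -0.55 in 566 to 0.71 in 631. The 36 measured replication-dependent histone genes, whose mRNAs lack a poly(A) tail, had 15 lower and 21 higher means and a median of 0.01. The share with a lower mean was 41.7%, against 63.5% of all genes tested. Several H2ac genes, such as H2ac1, H2ac10 and H2ac15, moved nearly alike across the arrays and may share signal. The counts may thus not be of separate genes. The median of the 36 by tumour was 0.29, 0.26, -0.22 and -0.41 in 566, 567, 573 and 631. The widest were H2bc4 at 0.48, higher in all 4 tumours, H2bc18 at -0.38 and H4c17 at -0.36. Of protein genes beside the RNA genes, Parp2 lay at -0.15 (0.09 with its other probe), Ccdc107 at -0.05 and Rps29, a gene near Rn7s1, at -0.10. These 3 were chosen after the data were seen.

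**Figure D5:**
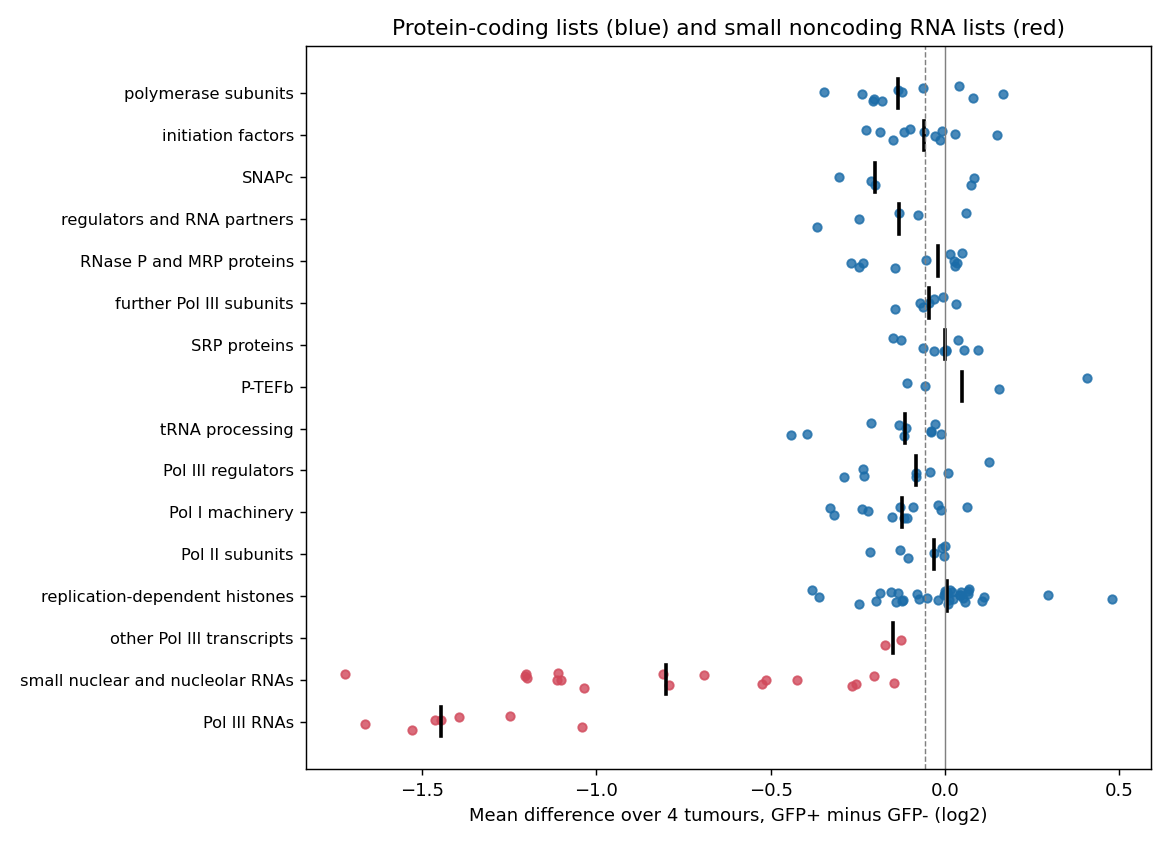
Mean difference GFP+ minus GFP- over 4 tumours (horizontal axis, log2) for each gene of the lists named on the vertical axis, with 1 point per gene, black bars for medians and a grey dashed line for the median of all genes tested, -0.06. The protein-coding lists (blue) have medians between -0.20 and 0.05, and the small nuclear and nucleolar RNAs (red) a median of -0.80. Of these 18 RNAs, 10 passed the filter on dim probes only through GFP- cells, where they are higher. The 8 well above background on all arrays had a median of -0.92.

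Several other measures are set beside the RNA differences, and their part in these was not tested. Of the marker sums below, only those of the pericyte markers did not overlap between the populations. Of 8 pericyte markers, 7 passed the filter on dim probes only through GFP- cells, and Notch3, the other, lay at -0.16. Cspg4 was higher in GFP+ cells in 573 and 631, Des in 573 and Notch3 in 631, and the other 5 were lower in all 4 tumours. Besides Notch3, none was well above background on the GFP+ array of 573, so the values of that tumour rest on background. The summed level of the 8 relative to the 75th percentile ran from 9.26 to 19.6 in GFP+ cells and from 22.1 to 31.0 in GFP- cells. Sums of the 4 measured macrophage markers were 4.09 to 7.28 and 5.45 to 8.96, and those of the 2 measured leukocyte markers 10.1 to 19.2 and 10.3 to 19.5. Epithelial sums were 309 to 616 and 325 to 491. The median difference of the 8 epithelial markers was 0.27, 0.62, -0.12 and 1.92 in 566, 567, 573 and 631. In 631, the tumour with the widest RNA differences, Epcam, Krt5, Krt14 and Cdh1 were higher in GFP+ cells by 4.0, 3.99, 4.26 and 3.88. The other markers of that list, Krt8, Krt18, Trp63 and Itga6, lay at -0.29, -0.11, -0.04 and -0.18 in 631. Endothelial sums, from 2 of 5 markers, were 0.142 to 7.93 and 0.105 to 0.244, fibroblast sums, from 4 of 5, 4.38 to 79.8 and 5.10 to 46.9, and red cell values, from 1 of 3, 0.131 to 1.23 and 0.225 to 0.283. In sorted bulk samples, fewer cells of a type and less RNA per cell cannot be told apart. The E1A spike-in control probes, added RNA that is not from the cells, were higher on the GFP+ array by 1.41, 0.10, 1.23 and 0.12 in 566, 567, 573 and 631. The priming used in labelling is not given in the sources used here.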

How the data were processed

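RNA of 8 sorted samples was measured on 1-colour Agilent arrays of 1 slide and 1 scan. The deposited files hold linear spot intensity, background-subtracted and not normalized between arrays per the file headers. Agilent Feature Extraction 10.7.3.1 is named in the submitters' processing notes. The deposited series table held the same intensity in all 62976 spots. The number of arrays limits the precision.

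Of 56605 gene probes, 56555 had an unflagged spot on every array, and spots of a probe were averaged. Log2 intensity minus the array's 75th percentile over 59305 gene spots was used. A probe was kept if well above background on each of the 4 arrays of a population (26316 probes), and the brightest probe per gene was used, giving 20265 genes. Accessions were matched to RefSeq symbols (GRCm38.p6); all 49 members matched. SE and p come from a limma 3.58.1 fit (R 4.3.3) with no block, Benjamini-Hochberg adjusted over all genes, and the script was tested on simulated data. This fit keeps the spread between tumours in SE and p. Its 161 genes at an unadjusted limma p under 0.05 compare with 1013 expected if no gene differed.

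The numbers pair the arrays. Deviations from the population means of 2 arrays with 1 number correlated across genes at 0.573, 0.695, 0.642 and 0.741, against at most 0.221 otherwise. Alternatives were other scalings, filters, probe rules and a floor, normexp (on the median signal, since no mean signal was in the files), tumour as a fixed or random block, and each array or tumour left out. Members and lists were chosen with earlier results of these data known. Array-by-array values are given for the RNAs, for machinery genes lower in all 4 tumours and for the 2 widest of each group; further lists give their 3 widest genes, except that 1 of them is not reported here.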

Additional observations from a re-analysis of the deposited data

Results flagged for a closer look

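Within 98 groups of 4 arrays (each member in each population), a sample was marked where its gap to the nearest other sample, over the whole range, exceeded Dixon's 95% critical value for 4 samples, and 7 groups were marked. The 49 sets of 4 tumour differences gave 2 more. Chance marks about 1 in 20 groups. Rmrp on the GFP- array of 631 was at 2.0, with the nearest GFP- level at 1.05. On the GFP+ array of 573, the array with the fewest spots well above background, Polr3d was at -0.47 and Hexim1 at 2.16. Among GFP- arrays, Tbp in 573 was at 0.74, Bdp1 in 631 at -0.61, Polr3k in 567 at 0.49 and Ssb in 567 at 3.99. The Polr3c difference in 631 was -0.42, with the nearest at 0.01, and the Polr3f difference in 573 was -0.93, with the nearest at -0.21.

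The E1A spike-in control probes, which the comparisons do not use, were higher on the GFP+ array in 4 of 4 tumours, by 0.72 on average relative to the 75th percentile and by 0.58 without scaling. This rests on 7 of 10 spike-in probes. Its part in any difference was not tested.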

How the results depend on the processing

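Under every alternative with a value, 0 genes passed between populations. With the tumour number as a fixed replicate block 0 genes passed, with 1113 at an unadjusted limma p under 0.05, and as a random replicate block 0 passed, with 1005; the pairing changed no call among the members. The median of the RNAs stayed between -1.60 and -1.14 over all settings, and 6 of 7 kept their sign in all 22; with a common floor Rprl1 lay at the floor in both populations. The machinery median ran from -0.16 with median scaling to -0.00 without the GFP- array of 631. With the processing, 18 of 42 genes did not keep their sign, among them Polr3f, which only reached 0 at the common floor. When arrays or tumours were left out, 27 changed sign.

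Genes lower in all 4 tumours numbered 1416 with median scaling, 1284 with the percentile over detected probes, 1248 with probes detected on all 8 arrays and 1303 with the floor, against 2198, and 3200 to 4878 with an array or tumour left out, where fewer pairs make the condition easier. Those with populations that did not overlap numbered 77, 60 and 77 with the last 3 of these, against 139, and 238 to 591 with one left out. Genes that differed among tumours numbered 2463 with quantile normalization, 0 with no filter (7666 at an unadjusted limma p under 0.05) and 1501 with the floor, against 5834, and 1500 to 5054 with one left out. The cause was not tested. Leaving out single arrays or tumours gave RNA medians from -1.60 to -1.14 and machinery medians from -0.15 to -0.00. On the GFP+ array of 573, 10 of the 49 members were not well above background.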
